A study of Mus musculus with 18 samples.

Results

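Respiratory chain genes were followed in mouse spleen: the nuclear genes of complexes I to V of oxidative phosphorylation together with the protein-coding genes of the mitochondrial genome. Members were protein-coding genes that lie on chrM, or whose symbol starts with Nduf, Uqcr, Sdh or Atp5, or with Cox followed by 4 to 8. Of 55385 gene models, 112 matched by chromosome or name. Atp5j and Atp5o (3 gene models), which lie in the triplicated interval, were left out, and 4 genes with a mean below 1 CPM (read counts scaled to a library total of 1000000) over the 18 libraries were dropped: Cox7a1 at 0.34 CPM, Cox8b at 0.09, and Cox8c and Cox7b2 at 0. This left 105 members, 92 nuclear and 13 mitochondrially encoded, and the nuclear set held 37 complex I genes, 4 of complex II, 8 of complex III, 16 of complex IV, 15 of complex V (ATP synthase) and 12 assembly factors that share the prefixes. The lowest members, just inside the threshold, were Cox4i2 at a mean of 1.15 CPM and mt-Nd3 at 1.96 CPM. All 105 passed the filter on low counts and were tested.

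Poly(A) RNA was sequenced from 18 mouse spleen samples of 3 genotypes, 6 of each, 3 from males and 3 from females. WT mice were wild-type C57BL/6J animals. Dp16 mice carry a duplication on chromosome 16 that spans Lipi through Zbtb21, so that genes in this interval have 3 copies instead of 2 in every cell of the animal. In Dp16_2xIFNRs mice the duplication is also present, but Il10rb, Ifngr2, Ifnar2 and Ifnar1, which encode interferon receptor subunits, are back at 2 copies each. The labels name no treatment, and the age label was not interpreted because its tag and the series title do not match. The only member on chromosome 16 is Ndufb4, at chr16:37647170-37654453, outside the interval. Library totals ran from 33998427 to 53021480 counts, so that a count of 0 would have allowed up to 0.0566 to 0.0882 CPM, counting error alone considered.

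The respiratory chain sits in the inner mitochondrial membrane. Complexes I and II feed electrons to ubiquinone, complex III passes them to cytochrome c, complex IV hands them to oxygen, and the proton gradient that complexes I, III and IV build drives ATP synthase. Complexes I, III, IV and V combine proteins made in the cytosol from nuclear genes with a few made inside the organelle from mitochondrial DNA, whereas complex II is wholly nuclear. In spleen, dividing precursors of blood cells and developing erythroblasts, which build haem in their mitochondria, hold many mitochondria, and mature red cells hold none.

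Nuclear respiratory genes are known for promoters that share short elements, among them sites of NRF1 and of the ETS family factor GABP, whose alpha subunit gene Gabpa lies in the triplicated interval. RefSeq promoters (GRCm38.p6, 250 bases before to 50 after each start) were matched for 75 of the 92 nuclear members. The NRF1 palindrome, shown in capitals for Atp5k and Atp5g2, was found in 7 of the 75 (9.33%) against 1.07% of 27025 genes with such a window, and the ETS letters CCGGAAG, on either strand, in 21 (28%) against 9.93%. The shares were 14.7% against 7.28% for the YY1 letters AAGATGG, 2.67% against 0.466% for the ERR letters TCAAGGTCA, and 49.3% against 38.2% for the SP letters GGGCGG, likewise on either strand, and none of these motifs contains another. These matches describe letters, not binding. The 100 bases before the start are shown for 6 members that the results return to, chosen to show the NRF1 letters (Atp5k and Atp5g2), the ETS letters or their reverse complement CTTCCGG (Cox6a1, Sdhd and Ndufaf1), and neither (Cox6b2). Capitals mark those letters, each stretch reads 5′ to 3′ on the gene's own strand, the minus strand in all 6 cases, and positions count back from the RefSeq start.
Atp5k: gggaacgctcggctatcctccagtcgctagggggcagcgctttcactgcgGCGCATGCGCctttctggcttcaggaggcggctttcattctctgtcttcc
Atp5g2: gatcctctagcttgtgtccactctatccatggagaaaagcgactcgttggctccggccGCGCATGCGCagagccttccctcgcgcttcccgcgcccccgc
Cox6a1: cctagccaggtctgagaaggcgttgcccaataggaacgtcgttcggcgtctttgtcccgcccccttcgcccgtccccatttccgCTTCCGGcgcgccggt
Sdhd: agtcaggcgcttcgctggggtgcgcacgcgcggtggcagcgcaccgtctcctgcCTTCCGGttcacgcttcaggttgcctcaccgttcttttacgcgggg
Ndufaf1: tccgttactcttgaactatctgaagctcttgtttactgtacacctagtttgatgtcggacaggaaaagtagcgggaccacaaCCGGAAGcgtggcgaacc
Cox6b2: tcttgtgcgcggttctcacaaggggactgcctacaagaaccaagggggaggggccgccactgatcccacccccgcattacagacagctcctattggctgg
In GRCm38.p6 these stretches lie at chr5:108434400-108434499 for Atp5k, chr15:102671048-102671147 for Atp5g2, chr5:115348959-115349058 for Cox6a1, chr9:50603850-50603949 for Sdhd, chr2:119662835-119662934 for Ndufaf1 and chr7:4753095-4753194 for Cox6b2. The NRF1 letters begin at position -50 in Atp5k and -42 in Atp5g2, and the ETS letters at -16 in Cox6a1, -46 in Sdhd and -18 in Ndufaf1. In Dp16 against WT, 16 of 21 members with the ETS letters and 46 of 54 without them were called higher, as were 5 of 7 with the NRF1 letters and 57 of 68 without.

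Most nuclear respiratory chain genes were higher in Dp16 spleen than in WT spleen, and no mitochondrially encoded one was. Of the 92 nuclear members, 76 rose and none fell at an adjusted p below 0.05 (edgeR's quasi-likelihood test with Benjamini-Hochberg adjustment over all 18634 tested genes, meant by every adjusted p here), beside 16.6% of all tested genes higher and 13.2% lower. Their median log2 fold change was 0.42, a fold of 1.34, against -0.01 for all tested genes. None of the 13 mitochondrially encoded members was called in either direction (29.8% of all tested genes were), 3 had an unadjusted p below 0.05, and their median log2 fold change was -0.18. In Dp16_2xIFNRs against WT, 81 of 92 nuclear members rose and none fell (background 17.3% higher and 14.2% lower), with a median of 0.48, and 1 mitochondrially encoded member, mt-Atp8, fell. Both comparisons share the WT libraries and are therefore given side by side. The mitochondrially encoded count depended on the scaling: 2 members were called lower in each comparison under upper quartile scaling or on RPKM values (CPM per kilobase of gene model), where all tested genes had a median of -0.13 in Dp16 against WT.

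**Figure D1:**
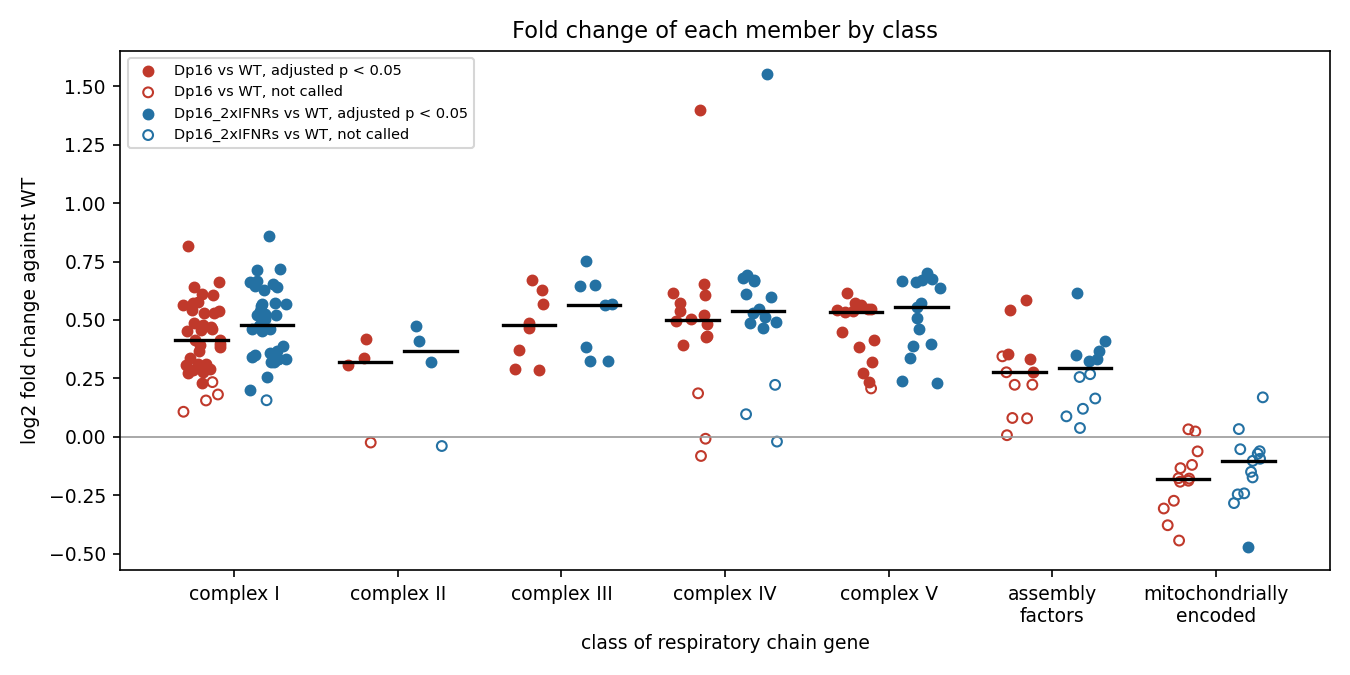
Log2 fold change against WT (y axis) of each member, by class (x axis), for Dp16 (red) and Dp16_2xIFNRs (blue). Filled points passed an adjusted p of 0.05, open points did not, and black lines are class medians; the nuclear classes sit mostly above 0, and the mitochondrially encoded members mostly below it.

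These nuclear transcripts are short, and gene length itself moved with genotype. Across 14604 tested coding genes the log2 fold change fell with gene model length (Spearman rho -0.37 in Dp16 and -0.41 in Dp16_2xIFNRs against WT, across genes, which are not independent), and across the 92 nuclear members rho was -0.39 and -0.41. Within each library, the deviation of coding genes from their mean over libraries correlated with length at a rho of 0.266 to 0.385 in the 6 WT libraries, -0.324 to 0.0707 in Dp16 and -0.411 to 0.138 in Dp16_2xIFNRs, with no overlap between WT and either. The 31 shortest nuclear members (371 to 761 bases) had 28 called higher in Dp16 against 36.0% of other coding genes in that range, the 31 of middle length (763 to 1363 bases) 25 against 35.7%, and the 30 longest (1415 to 6804 bases) 23 against 18.9%. With a length-dependent offset for each library, an alternative chosen after seeing the data, 43 nuclear members rose and 2 fell (Ndufa6 and Cox7a2l) in Dp16, and 46 rose and 3 fell (those and Atp5g2) in Dp16_2xIFNRs. Under the same offset 5 mitochondrially encoded members were called lower in Dp16 and 4 in Dp16_2xIFNRs. Genotype and the length trend cannot be told apart in these libraries.

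**Figure D2:**
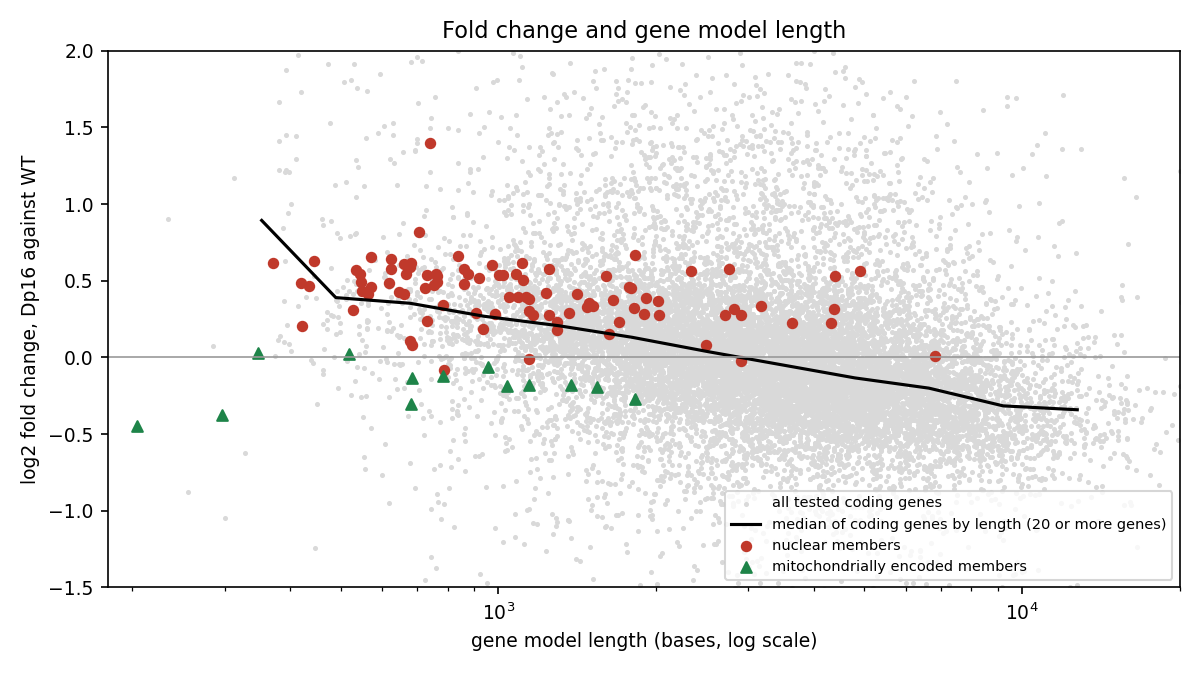
Log2 fold change of Dp16 against WT (y axis) by gene model length (x axis, log scale) for all tested coding genes (grey), nuclear members (red circles) and mitochondrially encoded members (green triangles), with the median of coding genes in length bins of 20 or more genes (black line). Most nuclear members lie above that line and the mitochondrially encoded ones lie at 0.03 or lower.

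Marker levels of several blood cell types differed as well. Summed markers of erythroid cells were 2560 ± 1750 CPM in WT (SD, n = 6; range 764 to 5653), 7703 ± 1237 in Dp16 (5937 to 8970) and 7867 ± 2771 in Dp16_2xIFNRs (5557 to 12401) over 15 of 15 listed genes. Cell division markers (14 of 14) summed to 1568 ± 634 CPM, 3107 ± 415 and 3100 ± 638, with 854 to 2704 in WT, 2689 to 3680 in Dp16 and 2559 to 4071 in Dp16_2xIFNRs. Neutrophil markers (13 of 13) summed to 488 to 2170 CPM in WT, 3226 to 11180 in Dp16 and 3798 to 6282 in Dp16_2xIFNRs, and B cell markers (10 of 10), which define spleen's main lymphocytes, to 3918 to 6050, 2558 to 3186 and 2685 to 3426. No marker of these 4 lists was at 0 in all libraries. In whole tissue, fewer cells of a type and less RNA per cell cannot be told apart, and the part of these shifts in the results was not tested. Muscle markers, which would carry heart and skeletal muscle subunit isoforms, stayed at 10.2 to 24.6 CPM in all libraries, with Myh4 and Myh6 under 0.1.

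Complex I takes electrons from NADH, and its 37 nuclear members include 7 core subunits that carry the flavin and iron-sulphur clusters and 30 accessory subunits that surround them. In Dp16, 33 of 37 rose and none fell, with 6 of 7 core members (median log2 fold change 0.31) and 27 of 30 accessory members (0.46). Ndufb9, an accessory subunit of the membrane arm at chr15:58933756-58939488, ran from 62.4 to 87.2 CPM in WT (median 69.8), 94.2 to 135 in Dp16 (113) and 96.7 to 153 in Dp16_2xIFNRs (110). Every Dp16 and Dp16_2xIFNRs library was above every WT library. Its log2 fold change was 0.81 ± 0.13 (SE) in Dp16 (edgeR adjusted p = 0.00011) and 0.86 ± 0.13 in Dp16_2xIFNRs. Ndufa12, an accessory subunit at the junction of the arms, had 48.4 to 57.2 CPM in WT (median 53.5), 63.8 to 82.3 in Dp16 (77.7) and 58.2 to 90.1 in Dp16_2xIFNRs (71.6), again without overlap. That was a rise of 0.61 ± 0.09 and 0.57 ± 0.09 on the log2 scale (edgeR adjusted p = 5.6e-05 and 9.6e-05). Ndufb10, of the membrane arm, rose by 0.54 ± 0.08 and 0.56 ± 0.08, from 93.4 to 108 CPM in WT to 124 to 149 and 116 to 151.

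Ndufa1, a small membrane subunit encoded on the X chromosome, had the highest level per length in complex I, a mean RPKM of 173. It ran from 56.5 to 63.8 CPM in WT, 68.6 to 91.0 in Dp16 and 59.0 to 90.3 in Dp16_2xIFNRs, and rose by 0.49 ± 0.10 and 0.52 ± 0.10 on the log2 scale, calls that were lost under the length offset (0.11 and 0.06). Ndufa6, an accessory subunit of the LYR motif family, had the weakest evidence of change in the class. Its library ranges overlapped in part, at 69.2 to 76.9 CPM in WT, 61.6 to 75.0 in Dp16 and 68.8 to 83.5 in Dp16_2xIFNRs. Its log2 fold change of 0.11 in Dp16 had a 95% interval of -0.04 to 0.25 (edgeR adjusted p = 0.31). Fold changes carry scaling factors that CPM values do not, as given for Sdha below. The Ndufa6 value was -0.01 on RPKM values and -0.22 under the length offset, the latter a call.

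Complex II oxidises succinate and is at the same time an enzyme of the citric acid cycle. Its catalytic flavoprotein Sdha was called in neither comparison, and the other 3 subunits were called higher in both. Sdha, at chr13:74322254-74350280, ran from 251 to 270 CPM in WT (median 265), 209 to 261 in Dp16 (243) and 218 to 251 in Dp16_2xIFNRs (234). CPM values are scaled to library totals, and fold changes additionally carry TMM scaling factors (WT 1.02 to 1.08, Dp16 0.925 to 1.01, Dp16_2xIFNRs 0.925 to 1.02), so the fitted log2 fold change of Sdha was -0.02, with a 95% interval of -0.13 to 0.08. The iron-sulphur subunit Sdhb rose by 0.31 ± 0.09 in Dp16 (edgeR adjusted p = 0.015) on 73.6 to 94.4 CPM in WT against 79.6 to 117, overlapping ranges. Without Dp16 replicate 5 its change was 0.25 (adjusted p = 0.051), on RPKM values 0.18 and under the length offset 0.06, none of them called. Its Dp16 call was also lost (0.21) with a block by description codes, which some libraries share. In Dp16_2xIFNRs the Sdhb call was lost on RPKM values (0.20) and under the length offset (0.04).

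The membrane anchors of complex II, Sdhc and Sdhd, bind ubiquinone and haem. Sdhc rose by 0.34 ± 0.09 and 0.41 ± 0.09 on the log2 scale in Dp16 and Dp16_2xIFNRs, from 72.3 to 86.1 CPM in WT to 83.7 to 97.2 and 83.9 to 112. Sdhd rose by 0.42 ± 0.10 and 0.47 ± 0.10 (edgeR adjusted p = 0.0044 and 0.0016). Its levels were 63.6 to 78.3 CPM in WT (median 69.8), 67.3 to 93.7 in Dp16 (89.1) and 74.0 to 106 in Dp16_2xIFNRs (86.9), and both calls were lost under the length offset (0.19 and 0.20). Under the description code block the Dp16 calls of Sdhc (0.36) and Sdhd (0.50) were lost. The gene models differ in length, and by RPKM Sdha was the highest of the 4 (84.5) and Sdhc the lowest (28.1).

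Complex III moves electrons from ubiquinol to cytochrome c, and all 8 of its nuclear members rose in both comparisons, with median log2 fold changes of 0.48 in Dp16 and 0.57 in Dp16_2xIFNRs. Uqcrq, a small subunit at chr11:53427922-53430831, ran from 57.5 to 72.7 CPM in WT (median 61.3), 79.7 to 111 in Dp16 (87.1) and 72.7 to 114 in Dp16_2xIFNRs (85.4). WT and Dp16 did not overlap. The log2 fold changes were 0.67 ± 0.12 and 0.64 ± 0.12 (edgeR adjusted p = 0.00025 and 0.00031). Uqcrb, another small subunit, had a narrow WT range of 60.1 to 64.1 CPM against 71.4 to 96.7 in Dp16 and 67.6 to 94.2 in Dp16_2xIFNRs, and rose by 0.57 ± 0.09 in each. The core protein gene Uqcrc1 rose by less, 0.37 ± 0.07 and 0.32 ± 0.07, from 141 to 170 CPM in WT to 163 to 198 and 164 to 206. Under the length offset the Dp16_2xIFNRs calls of Uqcrb (0.14) and Uqcrc1 (0.14) were lost. Uqcrh, the hinge protein that binds cytochrome c1, had the highest RPKM of the class (421) and rose by 0.49 ± 0.11 and 0.57 ± 0.11, calls lost under the length offset (0.13 and 0.14). The largest p in the class belonged to the Rieske iron-sulphur protein gene Uqcrfs1, which rose by 0.29 ± 0.09 and 0.39 ± 0.09. Its Dp16 call was lost on RPKM values (0.17), without the libraries that held over 4% of counts on Gm42418 (0.25) and under the length offset (0.08). The length offset also ended its Dp16_2xIFNRs call (0.14).

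Complex IV reduces oxygen, and several of its nuclear subunits exist as isoforms with different tissue patterns. In each comparison 13 of its 16 members rose and none fell. Cox6b2, known as the testis isoform of subunit VIb and located at chr7:4751792-4753094, had the largest log2 fold change of all members, 1.40 ± 0.20 in Dp16 (2.64-fold, edgeR adjusted p = 6.4e-05) and 1.55 ± 0.20 in Dp16_2xIFNRs (2.93-fold). It ran from 5.19 to 11.9 CPM in WT (median 9.94), 17.8 to 34 in Dp16 (20.8) and 16.3 to 32.0 in Dp16_2xIFNRs (24.7), without overlap with WT, and kept 1.08 and 1.18 under the length offset. The ubiquitous isoform Cox6b1 stood at 124 to 156 CPM in WT (median 133), 152 to 193 in Dp16 (176) and 142 to 220 in Dp16_2xIFNRs (197). It rose by 0.48 ± 0.10 and 0.60 ± 0.10, and its Dp16 call was lost under the length offset (0.15). Per length, Cox6b1 had a mean RPKM of 270 and Cox6b2 of 25.2, so the ubiquitous form remained the more abundant.

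The other isoform pairs had the same order of levels. Cox6a1, the form of most tissues, ran from 154 to 199 CPM in WT (median 166), 207 to 277 in Dp16 (239) and 212 to 298 in Dp16_2xIFNRs (243), without overlap, and rose by 0.66 ± 0.10 and 0.67 ± 0.10. Cox6a2, the heart and skeletal muscle form, was at 2.52 to 6.62 CPM over all libraries with a mean RPKM of 5.88 against 385 for Cox6a1. Its rises of 0.62 ± 0.21 and 0.67 ± 0.21 were called, but the Dp16 call was lost under 14 of 32 alternatives, among them omission of WT replicate 4 (0.54) or Dp16 replicate 6 (0.52), and in Dp16_2xIFNRs under 5, among them omission of Dp16_2xIFNRs replicate 2 (0.49). Cox4i1, the common form of subunit IV and the highest of complex IV by RPKM (416), rose by 0.49 ± 0.10 and 0.51 ± 0.10. Its lung-enriched counterpart Cox4i2 stood at 0.283 to 2.1 CPM in the 18 libraries, with a log2 fold change of -0.08 in Dp16 and an interval of -0.76 to 0.60.

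Cox7a2, the liver-type form of subunit VIIa and the called complex IV gene with the smallest p in Dp16, had 52.5 to 67.8 CPM in WT (median 58.8), 73.3 to 89.5 in Dp16 (85.1) and 75.9 to 105 in Dp16_2xIFNRs (83.3). No library overlapped with WT, and the log2 fold changes were 0.61 ± 0.09 and 0.68 ± 0.09. Its relative Cox7a2l, which takes part in joining complexes III and IV into supercomplexes, overlapped between genotypes at 210 to 267 CPM in WT, 200 to 267 in Dp16 and 185 to 234 in Dp16_2xIFNRs. Its log2 fold change in Dp16 was -0.01, with an interval of -0.17 to 0.16. Cox7b rose by 0.54 ± 0.09 and 0.61 ± 0.09, and Cox8a by 0.43 ± 0.09 and 0.49 ± 0.09, the latter pair lost under the length offset (0.08 and 0.07). Ndufa4, long counted with complex I and now known as a subunit of complex IV, rose by 0.57 ± 0.11 and 0.69 ± 0.11. Its hypoxia-inducible paralogue Ndufa4l2 had 2.51 to 6.89 CPM over all libraries and a log2 fold change of 0.19 in Dp16, with an interval of -0.28 to 0.65.

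**Figure D3:**
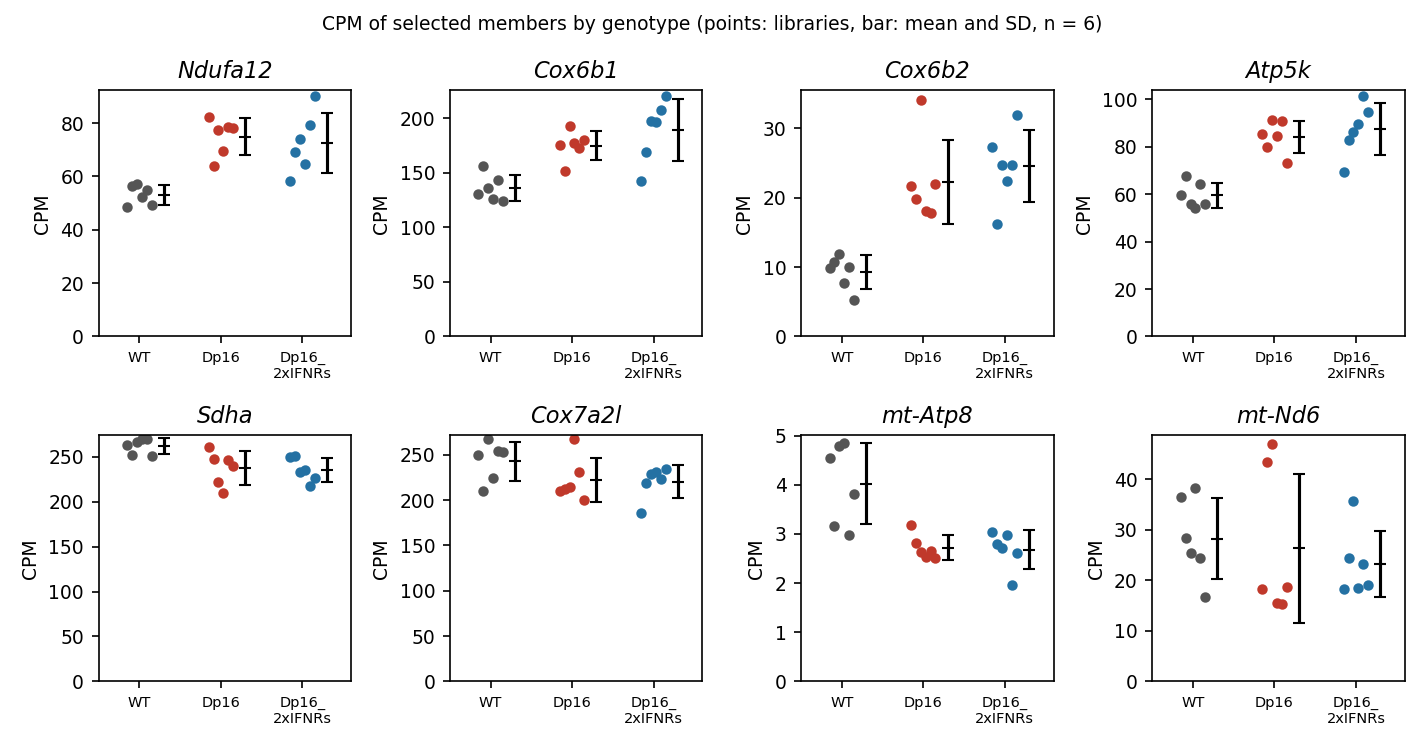
CPM (y axes, from 0) of 8 members in each library by genotype, with mean and SD of 6 libraries beside the points. Ndufa12, Cox6b2 and Atp5k lie higher in both Dp16 genotypes without overlap with WT, whereas Sdha, Cox7a2l and mt-Nd6 overlap.

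ATP synthase consists of a catalytic head, a rotor that holds a ring of c subunits, and a peripheral stalk. Of its 15 members outside the triplicated interval, 14 rose in Dp16 and 15 in Dp16_2xIFNRs. Atp5k, subunit e of the membrane part at chr5:108433244-108434448, ran from 54.2 to 67.7 CPM in WT (median 57.8), 73.2 to 91.3 in Dp16 (85.0) and 69.2 to 101 in Dp16_2xIFNRs (88.1). The WT libraries did not overlap with the others, and the log2 fold changes were 0.62 ± 0.09 and 0.68 ± 0.09 (edgeR adjusted p = 8.2e-05 and 4.1e-05). Atp5pb, subunit b of the peripheral stalk, rose by 0.53 ± 0.09 and 0.56 ± 0.09, from 198 to 253 CPM in WT to 268 to 321 and 257 to 340. The head subunit beta gene Atp5b, with the highest RPKM of the class (401), rose by 0.39 ± 0.08 and 0.40 ± 0.08. It ran from 567 to 766 CPM in WT, 705 to 868 in Dp16 and 752 to 947 in Dp16_2xIFNRs. Its Dp16 call was lost under the description code block (0.36).

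The 3 genes Atp5g1, Atp5g2 and Atp5g3 encode the same mature c subunit behind different import signals. Atp5g1 had 49.3 to 69.7 CPM in WT (median 58.0), 69.8 to 85.8 in Dp16 (79.6) and 70.2 to 110 in Dp16_2xIFNRs (82.5), and rose by 0.56 ± 0.09 and 0.66 ± 0.09. Atp5g3 rose by 0.45 ± 0.08 and 0.51 ± 0.08, from 127 to 160 CPM to 154 to 201 and 164 to 230. Both of its calls were lost under the length offset (0.14 and 0.13). Atp5g2 moved least, 0.24 ± 0.09 in each comparison on 91.1 to 102 CPM in WT, 98.4 to 114 in Dp16 and 86.8 to 121 in Dp16_2xIFNRs, and its calls were lost under 20 and 21 of 32 alternatives, including the omission of any single WT library (0.21 to 0.25). Under the length offset its values were -0.0792 in Dp16 and -0.14 in Dp16_2xIFNRs, the latter a call in the opposite direction (edgeR adjusted p = 0.033). Atp5e, the epsilon subunit of the head, had 75.2 to 93.9 CPM in WT and 72.5 to 96.1 in Dp16, a log2 fold change of 0.21 with an interval of 0.00 to 0.41 (edgeR adjusted p = 0.15). In Dp16_2xIFNRs it ran from 85.5 to 126 CPM and rose by 0.46 ± 0.10, which was 0.00 under the length offset. Beside these, the triplicated ATP synthase genes Atp5j and Atp5o, not counted as members, rose 1.94-fold and 2.13-fold in Dp16.

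The 12 assembly factors, which help build complexes I and II without staying in them, had a lower median log2 fold change (0.28 in Dp16) than any complex: 5 rose in Dp16 and 6 in Dp16_2xIFNRs, and none fell. Ndufaf2, a complex I assembly factor at chr13:108002715-108158623, rose by 0.59 ± 0.12 and 0.41 ± 0.11, from 9.30 to 13.7 CPM in WT to 12.8 to 18.8 and 11.4 to 15.7, ranges that overlap. The call was lost under the length offset (0.27 and 0.03). Ndufaf6 rose by 0.54 ± 0.17 and 0.62 ± 0.17 on 2.89 to 4.60 CPM in WT, 3.78 to 5.72 in Dp16 and 3.82 to 7.47 in Dp16_2xIFNRs, calls that the length offset also ended (0.29 and 0.32). The description code block ended both Ndufaf6 calls as well (0.33 and 0.39). Ndufaf1 rose by 0.33 ± 0.11 and 0.37 ± 0.11. Its Dp16 call was lost under 7 of 32 alternatives, among them omission of WT replicate 6 (0.28) or Dp16 replicate 5 (0.30) and the length offset (0.14). The Dp16_2xIFNRs call of Ndufaf1 was lost under 4, among them the length offset (0.15). The 4 complex II factors Sdhaf1, Sdhaf2, Sdhaf3 and Sdhaf4 were called in neither comparison, and Sdhaf2, which attaches the flavin to Sdha, had 40.7 to 50.8 CPM in WT, 34.7 to 46.2 in Dp16 and a log2 fold change of 0.01 (interval -0.16 to 0.18).

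Across the nuclear members, 76 were called higher in both genotypes. Atp5e, Ndufaf4, Ndufb5 and Ndufs4 were called higher in Dp16_2xIFNRs and not in Dp16 (named after their values were seen), with Dp16 values of 0.18 to 0.23 on the log2 scale; whether the genotypes differed in them was tested directly in the comparison of Dp16_2xIFNRs with Dp16, which called none. Neither comparison called Cox4i2, Cox7a2l, Ndufa4l2, Ndufa6, Ndufaf5, Ndufaf8, Sdha and the 4 Sdhaf genes. In CPM, 34 nuclear members had all 6 Dp16 libraries above all 6 WT libraries (background 4.57%) and 33 had all 6 Dp16_2xIFNRs libraries above them (4.49%), with none below (8.38% and 8.21%) and no mitochondrially encoded member on either side.

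The mitochondrial genome encodes 7 subunits of complex I, cytochrome b of complex III, 3 subunits of complex IV and 2 of ATP synthase, all transcribed as long polycistronic RNAs and cut apart at transfer RNAs. Of these, 6 genes, namely mt-Co1, mt-Cytb, mt-Nd1, mt-Nd2, mt-Nd5 and mt-Nd4, had a mean RPKM of 839 to 4176, and the other 7 had 5.63 to 83.7. The low values need care: mt-Co2, mt-Atp6, mt-Co3, mt-Nd3 and mt-Nd4l each match a chromosome 1 pseudogene over 99.0% to 99.9% of their length at 99.7% identity or more, and mt-Nd4 matches one over 63.6%, so that reads could be split or lost between the copies. The chromosome 1 copies of mt-Atp6, mt-Co2 and mt-Co3 held 42.3, 46.4 and 35.2 CPM, near the counts of the genes themselves. mt-Atp8, at chrM:7766-7969, lies between mt-Co2 and mt-Atp6 and overlaps the latter. The values of these 6 genes are uncertain for that reason, those of mt-Atp8 because of the overlap, and the strand setting of the authors' counting, on which overlapping genes such as mt-Nd5 and mt-Nd6 depend, is not given in the sources used here.

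**Figure D4:**
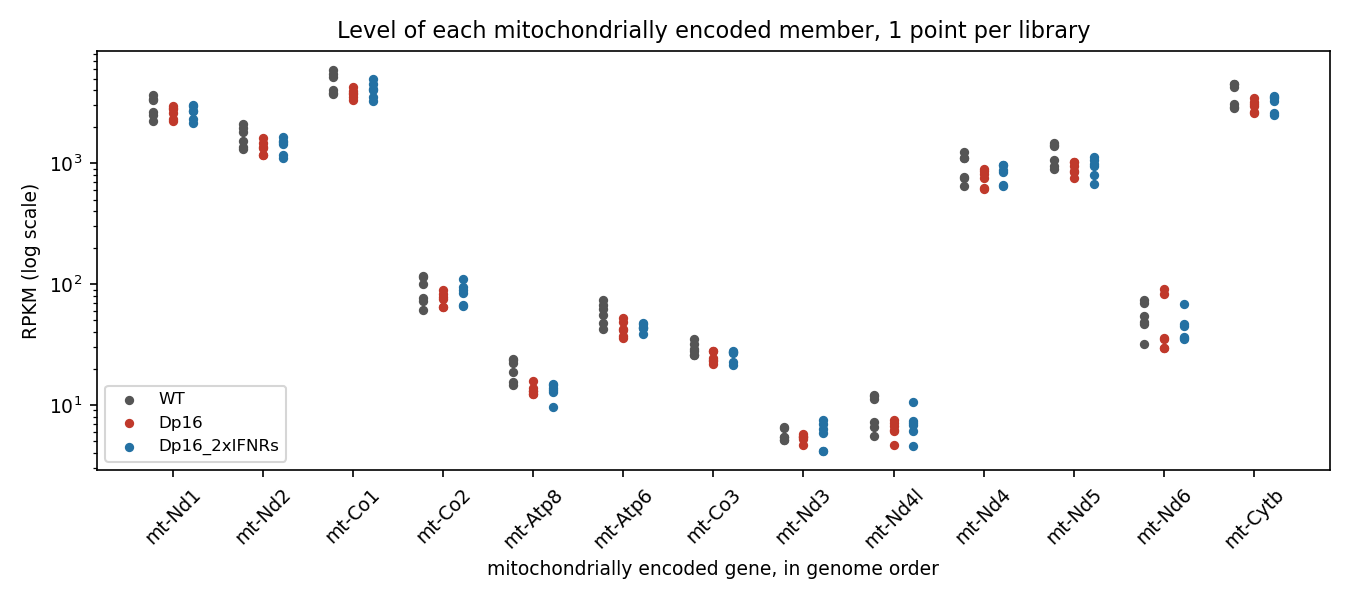
RPKM (y axis, log scale) of the 13 mitochondrially encoded members in genome order (x axis), with 1 point per library and genotypes side by side. The genes fall into a high band of 6 and a low band of 7, and the genotypes overlap in each.

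In the high band, mt-Co1, the catalytic subunit of complex IV, ran from 5726 to 9136 CPM in WT (median 7144), 5096 to 6640 in Dp16 (5826) and 5007 to 7708 in Dp16_2xIFNRs (6262). The groups overlapped, and the log2 fold change in Dp16 was -0.19 with an interval of -0.41 to 0.02. mt-Cytb, the single mitochondrial product of complex III, ran from 3273 to 5162, 2994 to 3947 and 2883 to 4139 CPM, with -0.18 (-0.42 to 0.07). Of the complex I genes, mt-Nd1 had 2139 to 3535, 2115 to 2817 and 2069 to 2921 CPM and -0.06 (-0.29 to 0.17), and mt-Nd2 1357 to 2197, 1220 to 1687 and 1147 to 1692 CPM and -0.19 (-0.42 to 0.05). mt-Nd5 had 1616 to 2699, 1386 to 1870 and 1226 to 2034 CPM and -0.27 (-0.53 to -0.02, edgeR adjusted p = 0.12). mt-Nd4 had 888 to 1698, 842 to 1237 and 897 to 1338 CPM and -0.18 (-0.49 to 0.13). In each of these 6 genes the highest library was a WT library, and the lowest was not.

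mt-Nd6, the only protein gene on the light strand, varied most within genotypes. It ran from 16.7 to 38.2 CPM in WT (median 26.8), 15.2 to 46.8 in Dp16 (18.4) and 18.3 to 35.6 in Dp16_2xIFNRs (21.2), and its log2 fold change in Dp16 of 0.02 had an interval of -0.63 to 0.68. Of the genes with near-identical copies, mt-Co2 had -0.13 (-0.46 to 0.19), mt-Co3 -0.12 (-0.32 to 0.08), mt-Nd3 0.03 (-0.37 to 0.44) and mt-Nd4l -0.38 (-0.84 to 0.09) in Dp16. The ATP synthase pair came closest to a call. mt-Atp8 had 2.98 to 4.86 CPM in WT (median 4.18), 2.52 to 3.19 in Dp16 (2.65) and 1.95 to 3.05 in Dp16_2xIFNRs (2.75), and mt-Atp6 29.0 to 50.1, 24.1 to 35.4 and 26.1 to 32.5. In Dp16, mt-Atp8 had -0.44 ± 0.17 (edgeR adjusted p = 0.051) and mt-Atp6 -0.31 ± 0.12 (adjusted p = 0.061). In Dp16_2xIFNRs, mt-Atp8 fell by 0.47 ± 0.17 (adjusted p = 0.037), a call that was lost without WT replicate 1 (-0.44), 3 (-0.40) or 4 (-0.41) and without Dp16_2xIFNRs replicate 2 (-0.48), 5 (-0.40) or 6 (-0.47). In Dp16 the 2 genes passed the threshold without WT replicate 2 (-0.50 and -0.37) or WT replicate 5 (-0.53 and -0.36), mt-Atp8 also without Dp16 replicate 1 (-0.49) or Dp16_2xIFNRs replicate 5 (-0.44), and mt-Atp6 without Dp16 replicate 3 (-0.41).

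Summed over members, nuclear levels separated WT from the other genotypes and mitochondrial levels did not. The nuclear members together held 7326 to 8618 CPM in WT (median 7925), 8671 to 10198 in Dp16 (9782) and 8774 to 11244 in Dp16_2xIFNRs (9840), so every library of both Dp16 genotypes was above every WT library. The mitochondrially encoded members held 15222 to 24624 CPM in WT (19839), 13965 to 18169 in Dp16 (16138) and 13346 to 19444 in Dp16_2xIFNRs (17792), and these ranges overlapped. WT replicates 1, 3 and 4 were at 22619 to 24624 CPM, and the other WT libraries fell among the Dp16 values. The ratio of nuclear to mitochondrial counts was 0.421 ± 0.102 in WT (SD, n = 6; 0.317 to 0.542), 0.611 ± 0.0855 in Dp16 (0.477 to 0.709) and 0.605 ± 0.148 in Dp16_2xIFNRs (0.451 to 0.796). It is a sum over chosen members and is given without a test. Its mean log2 value was higher by 0.56 in Dp16 and 0.52 in Dp16_2xIFNRs than in WT.

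**Figure D5:**
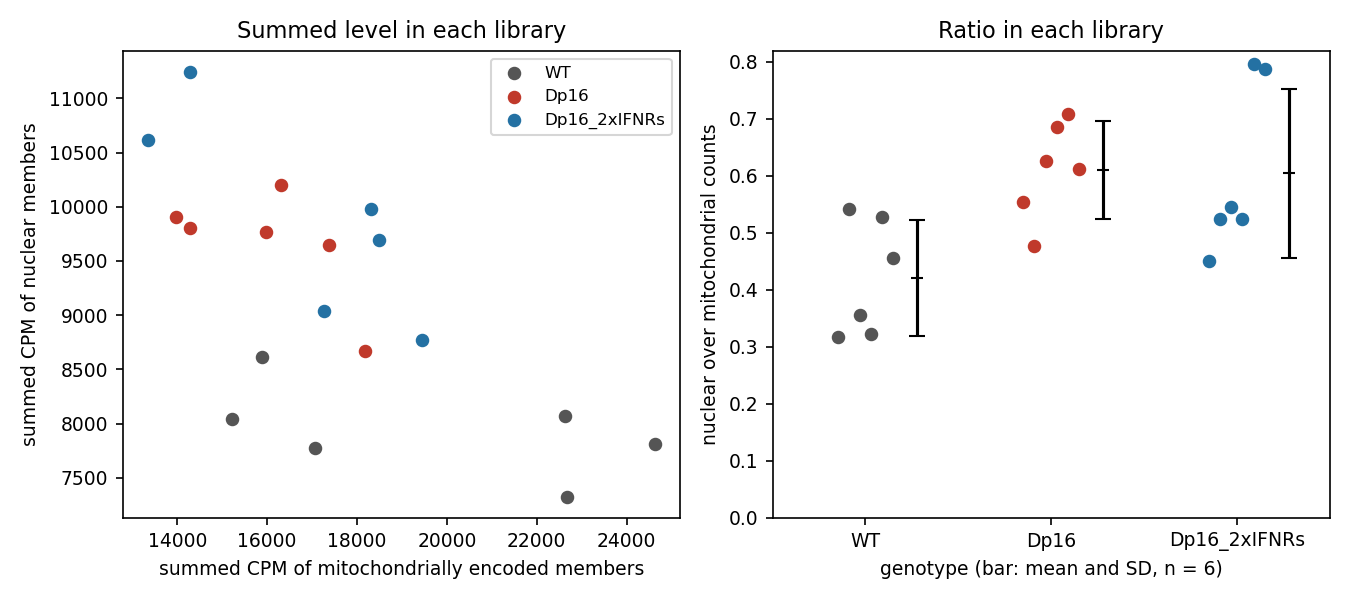
Left, summed CPM of the nuclear members (y axis) against that of the mitochondrially encoded members (x axis), 1 point per library. Right, the ratio of the counts by genotype with mean and SD (n = 6); nuclear sums separate WT from the other genotypes, while mitochondrial sums and ratios overlap.

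The comparison of Dp16_2xIFNRs with Dp16 asks what the third copy of the 4 interferon receptor genes adds. No member was called in it (0 of 105, edgeR), beside 0.0215% of all tested genes (4 genes, all lower), and 2 nuclear members had an unadjusted p below 0.05. DESeq2 also called none. In CPM, no member had all 6 Dp16_2xIFNRs libraries on 1 side of all 6 Dp16 libraries (background 0.0751% above and 0.0429% below). The median log2 difference was 0.05 over the nuclear members and 0.05 over the mitochondrially encoded ones. The 95% intervals of 89 of 92 nuclear and 10 of 13 mitochondrially encoded members lay within 0.5 of 0 on the log2 scale. The 6 with wider intervals were Cox4i2, Cox6b2, Ndufa4l2, mt-Nd3, mt-Nd4l and mt-Nd6. Median interval bounds were -0.13 and 0.24 for the nuclear members and -0.21 and 0.31 for the mitochondrially encoded ones. A difference that lies inside a member's own interval is not excluded here.

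Other nuclear genes of the mitochondrion were described by lists. The trend of fold change with gene model length was not accounted for in any of these lists. Of the mitochondrial ribosomal proteins, which translate the 13 mitochondrial messages, 59 of 75 rose in Dp16 and 64 in Dp16_2xIFNRs, none fell, and the medians were 0.34 and 0.41. Mrpl34 rose by 0.55 ± 0.08 from 32.2 ± 1.48 to 43.6 ± 2.98 CPM (SD, n = 6) in Dp16, and Mrpl18 by 0.69 ± 0.10. Of the import machinery that brings nuclear-encoded proteins into the organelle, 15 of 23 rose and 1 fell in Dp16, with Timm50 at 0.51 ± 0.07 and Tomm40 at 0.39 ± 0.07. Tomm34 was the one that fell, by 0.28. In the citric acid cycle 9 of 15 rose, led by the smallest p of Dlst (0.45 ± 0.07) and Idh3a (0.55 ± 0.10).

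The electron carriers and ubiquinone synthesis list had 8 of 18 higher and 1 lower. Cytochrome c itself, Cycs, rose by 0.62 ± 0.08 from 50.7 ± 5.62 to 72.1 ± 6.25 CPM, and Coq7, a hydroxylase of ubiquinone synthesis, by 0.71 ± 0.12. Coq8a, a kinase-like protein of the same pathway, fell by 0.54. Of 40 assembly factors outside the member rule, 12 rose and 1 fell, with Cmc2 at 1.03 ± 0.16 and Pet100 at 0.63 ± 0.10. Cmc2 went from 13.9 ± 3.00 to 26.1 ± 4.21 CPM. These lists, like the members, stood beside a background of 16.6% higher and 13.2% lower.

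Of 14 genes for mitochondrial DNA transcription and replication, 3 rose and 1 fell in Dp16, and the list median was 0.02. Tfb1m, a ribosomal RNA methyltransferase, rose by 0.57 ± 0.13 and Ssbp1, the single-strand binding protein, by 0.27 ± 0.07, while Polg, the replicating polymerase, fell by 0.27. Of 20 genes of mitochondrial RNA processing 7 rose in Dp16 and 9 in Dp16_2xIFNRs and none fell, with Rexo2 at 0.60 ± 0.12 and Supv3l1 at 0.29 ± 0.08. Among 15 genes of mitochondrial dynamics and mitophagy 5 rose, with Phb2 at 0.44 ± 0.08 and Bnip3l, the receptor that clears mitochondria from maturing red cells, at 0.77 ± 0.15. Among 11 regulators of mitochondrial genes 2 rose and 1 fell in each comparison. In Dp16 their median was -0.16, with 9 of 11 below 0 and the lowest value in Esrrg (-0.86). The background for the lists of this paragraph was 16.6% higher and 13.2% lower in Dp16, and 17.3% and 14.2% in Dp16_2xIFNRs. The 2 that rose in Dp16 were Gabpa, which is triplicated, by 0.47 ± 0.07 and Nrf1 by 0.30 ± 0.08.

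No difference between males and females in these responses passed the test. The sex by genotype terms called 0 of 105 members and 0 of 18634 genes in an edgeR fit with interaction, with 439 and 745 genes at an unadjusted p below 0.05 for Dp16 and Dp16_2xIFNRs.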

How the data were processed

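Poly(A) RNA of 18 spleen samples was sequenced in paired-end mode from strand-specific libraries, per the labels' protocols. The deposited whole-number counts per gene model were made by the authors, and GRCm38, HTSeq 0.6.1, SAMtools 1.5, HISAT2 2.1.0, FastQC 0.11.5 and bcl2fastq appear in the submitters' processing notes with no role stated. The authors' deposited RPKM values equal the counts divided by library total and 1 length per gene (13747 genes checked), and were used for lengths, for levels between genes and for 1 alternative. Gene positions came from the GRCm38 annotation and promoters from RefSeq.

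Counts were filtered (filterByExpr, 18634 genes), scaled by TMM and fitted with edgeR 4.0.16 (R 4.3.3; quasi-likelihood, robust) on genotype and sex over all 18 libraries. Errors are standard errors of that fit, and the fit was tested on simulated data. Library totals of 33998427 to 53021480 set the counting precision. Reads carry no molecular identifiers. The labels do not state that samples are separate animals, so p-values measure the spread between these samples, which may be technical. Within genotypes, no 2 libraries were near copies (chi-square over its degrees of freedom 35.1 to 200.4).

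Members, lists and tests were chosen with earlier results of these data known. Genes were named by rule: all mitochondrial members, the 3 smallest and the largest p of each nuclear class in Dp16 vs WT, the highest RPKM of each class, isoform groups, and the 2 smallest p of each list. Alternatives were other scalings (RLE, upper quartile), other filters (none, or 1 CPM in 6 libraries), an adjusted p of 0.1, DESeq2 1.42.0, limma 3.58.1 on log2(RPKM + 0.1), other terms or blocks, 12 libraries only, omission of Gm42418 and of each library, and, chosen after seeing the data, a length-dependent offset and a fit without the 4 libraries in which Gm42418 exceeded 4% of counts.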

Additional observations from a re-analysis of the deposited data

Results flagged for a closer look

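In each genotype, a library was picked out where it stood apart from the other 5 by more than Dixon's 95% limit. This held for 12 of 159 groups tested (7.55%), and chance alone gives about 1 in 20. WT replicate 2 was high in 3 members, with Cox6a1 at 198.9 CPM, Ndufa4 at 92.2 and Uqcrq at 72.7, and WT replicate 3 was high in Ndufa6 at 76.9 CPM. Dp16 replicate 2 was low in Cox7a2 (73.3 CPM), in Sdhd (67.3 CPM) and in the summed nuclear members (8671 CPM), and Dp16 replicate 3 was high in Cox6b2 (34.01 CPM). In Dp16_2xIFNRs, replicate 2 was high in Cox6a2 (6.45 CPM), replicate 6 in Ndufa6 (83.5 CPM) and replicate 3 in mt-Nd6 (35.6 CPM), and replicate 1 was low in Cox7a2l (185 CPM).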

How the results depend on the processing

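Most values held. Of 435 alternative values for the main counts and ratios 398 stayed within their limits, and of 2610 for single named genes 2421 kept direction and call. Leaving out 1 library left 69 to 77 higher nuclear members in Dp16 vs WT and 76 to 81 in Dp16_2xIFNRs vs WT, with 0 lower, and 0 to 2 mitochondrially encoded members lower in each. The log2 ratio of nuclear to mitochondrial counts ran from 0.49 to 0.64, 0.44 to 0.61 and, between the Dp16 genotypes, -0.12 to 0.04.

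Only the length offset moved the nuclear counts past 1.5 times, in Dp16 vs WT to 43 higher and 2 lower, in Dp16_2xIFNRs vs WT to 46 higher and 3 lower. Upper quartile scaling gave 65 and 76 nuclear members higher, limma on RPKM 60 and 71, and the block by description codes that some libraries share 54 and 75. Over all genes those scalings turned the split of 3091 higher and 2462 lower in Dp16 vs WT to 2558 and 3333 (upper quartile) and 2220 and 3924 (RPKM). Mitochondrially encoded members lower in Dp16 vs WT numbered 1 under RLE scaling, no filter, a filter at 1 CPM, genotype alone, the description code block and without the high Gm42418 libraries, 2 at an adjusted p below 0.1, under upper quartile scaling, DESeq2 or RPKM, and 5 under the length offset. In Dp16_2xIFNRs vs WT they numbered 0 without a filter, in 12 libraries and without the high Gm42418 libraries, 2 at an adjusted p below 0.1, under upper quartile scaling, RPKM or the description code block, and 4 under the length offset. The cause was not tested.

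The title numbers do not pair libraries: after removal of genotype means, same-numbered libraries correlated at 0.018 on average over 18 pairs and others at -0.004. A replicate block gave 70 and 80 nuclear members higher and 1 and 2 mitochondrially encoded ones lower in Dp16 and Dp16_2xIFNRs vs WT, and mt-Nd6 at -0.13 in Dp16 vs WT.

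The length offset turned the called rise of Atp5g2 to -0.0792 in Dp16 vs WT and to a called fall of -0.14 in Dp16_2xIFNRs vs WT. The other values that changed sign were uncalled ones in Dp16 vs WT. Uncalled values in Dp16_2xIFNRs vs WT were not followed for sign changes. The length offset gave Atp5e -0.17, Ndufa4l2 -0.10, Ndufa6 -0.22 (called), mt-Nd3 -0.37 and mt-Nd6 -0.34. The description code block gave Cox4i2 0.33, Ndufa4l2 -0.0396, Sdha 0.00796, Sdhaf2 -0.0020, mt-Co2 0.0441 and mt-Nd1 0.0422. RPKM gave Ndufa6 -0.0137, Sdhaf2 -0.11, mt-Nd3 -0.0836 and mt-Nd6 -0.22. Upper quartile scaling gave Sdhaf2 -0.055, mt-Nd3 -0.0305 and mt-Nd6 -0.038, and no filter Sdhaf2 -0.0285, mt-Nd3 -0.00296 and mt-Nd6 -0.00948. Sdhaf2 was -0.0065 under RLE scaling and -0.00714 with DESeq2. Cox7a2l was 0.00287 without mitochondrial genes and Gm42418 and 0.00566 in 12 libraries. Without the high Gm42418 libraries mt-Nd3 was -0.0381 and mt-Nd6 -0.50, and with a Gm42418 term mt-Nd6 was -0.16. Leaving out 1 library at a time, values crossed 0 in Cox4i2 (-0.23 to 0.13), Cox7a2l (-0.080 to 0.030), Sdha (-0.046 to 0.0041), Sdhaf2 (-0.031 to 0.054), mt-Nd3 (-0.023 to 0.070) and mt-Nd6 (-0.27 to 0.15). Depth limits Cox4i2, mt-Nd3 and mt-Nd4l most, at under 4 CPM.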

Other observations

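The mitochondrially encoded members were set against Gm42418, a ribosomal RNA-derived gene model, which took 0.691% to 5.51% of counts. Over the 18 libraries, log2 CPM of mt-Nd6 and the log2 share of Gm42418 correlated at a Pearson's r of 0.65 (permutation p adjusted over 15 relations 0.02) and a Spearman's rho of 0.585 (adjusted 0.06). Without the 2 libraries farthest from the median share r was 0.51, and within WT, Dp16 and Dp16_2xIFNRs it was 0.57, 0.82 and 0.53. The mitochondrial ribosomal RNA genes mt-Rnr1 and mt-Rnr2, which are not members, had r values of 0.94 and 0.90. The other 12 protein genes had r values of -0.277 to 0.358 over all libraries, with -0.58 to 0.05 within WT, -0.21 to 0.86 within Dp16 and -0.89 to 0.79 within Dp16_2xIFNRs. Within Dp16, mt-Atp6 (0.86), mt-Co2 (0.80) and mt-Nd3 (0.70) had values close to that of mt-Nd6, and no difference between genes was tested.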
